A study of Mus musculus with 30 samples.

Results

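The hepatic response to anti-DBI in mice on regular chow diet (RCD) was measured in 10 livers, 5 of RCD anti-DBI mice and 5 of RCD IgG mice. These 10 were chosen by their diet and antibody labels out of 30 livers in the series, and every gene in the count table was considered. The mice were male, of the strain C57BL/6, and 8 weeks old when the 6 weeks of feeding began. RCD anti-DBI mice received a monoclonal antibody against ACBP/DBI, and RCD IgG mice an isotype control antibody, each intraperitoneally at 5 µg/g body weight as 2 weekly doses that began in week 4 and ended with collection in week 6. Regular chow served in the study as the healthy reference diet, so these livers compare anti-DBI with IgG outside the disease model. Anti-DBI was custom-made at the Fred Hutch Cancer Center, and the isotype IgG came from Bioxcell. Effects of neutralization and of the antibody source therefore cannot be told apart. The other 20 livers came from mice on the methionine- and choline-deficient diet (MCD), 10 of them with anti-DBI and 10 with IgG, and served here only for comparison. Livers of mice given no antibody were not analysed here, and the hour of day, the feeding state and the interval after the last injection are not given for the collection of the livers in the sources used here.

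ACBP/DBI (acyl-CoA-binding protein, also diazepam-binding inhibitor) is a small protein that binds acyl-CoA inside cells and, once released, acts as an extracellular messenger, for which the antibody is a neutralizing agent. The acute phase response is the program by which hepatocytes, mostly on interleukin-6 and interleukin-1 signals, secrete large amounts of serum amyloid A, haptoglobin, fibrinogen, complement and other plasma proteins. Hepatic lipogenesis turns surplus glucose into fatty acids under the transcription factors SREBP-1c and ChREBP and the hormone insulin. The hepatic clock is a feedback loop in which the activators CLOCK and BMAL1 (encoded by Arntl) drive their own repressors of the PER and CRY families, with the nuclear receptors REV-ERB and ROR as a second loop.

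The libraries held between 10.5 and 14.0 M counts (M, 1e+06) in RCD anti-DBI and between 8.36 and 13.4 M in RCD IgG. Mitochondrial transcripts made up 4.38% to 5.45% of the counts with anti-DBI and 4.99% to 5.69% with IgG, and the albumin gene Alb 5.82% to 7.79% with anti-DBI and 7.26% to 8.81% with IgG. All 19 hepatocyte markers were measured, with a summed level of 122453 to 150821 CPM (defined below) with anti-DBI and 139960 to 165782 CPM with IgG. In a principal component analysis of 1000 variable genes, the first component (41.7% of the variance) separated all 5 RCD anti-DBI livers from all 5 RCD IgG livers. On the second component (17.8%), RCD anti-DBI 1 and RCD anti-DBI 4 lay at opposite ends of the 10 livers. No pair of libraries within either RCD group was alike within sampling noise. Levels below are counts per 1e+06 counts of the tested genes after TMM scaling of the 10 libraries (CPM), and values of single livers are given for replicates 1 to 5 in order.

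The acute phase genes carried the largest changes, and the sequences at their start sites are shown first because several share 1 motif. RefSeq promoters (250 bases before and 50 after the start, GRCm38.p6) were found for 9738 of the genes tested. The binding motif of C/EBP factors, transcription factors of the acute phase response, was searched as TTGCNNAA on both strands. It was present in 16 of the 28 acute phase genes with a promoter (57.1%), in 10.6% of the genes tested and in 12.2% of all 27025 genes with a promoter. Among the 17 of these genes that rose it was present in 10 (58.8%), near the share of all 28. The promoters of Saa1, Saa2, Orm2 and Lcn2, among the most changed, were chosen because they hold this match. They are printed 5′ to 3′ with the match in capitals. The promoters of Lrg1, Mt1 and Itih4, which also rose, held no such match. A match of letters is a description and not a measured binding site.
Saa1, chr7:46742931-46743230, minus strand: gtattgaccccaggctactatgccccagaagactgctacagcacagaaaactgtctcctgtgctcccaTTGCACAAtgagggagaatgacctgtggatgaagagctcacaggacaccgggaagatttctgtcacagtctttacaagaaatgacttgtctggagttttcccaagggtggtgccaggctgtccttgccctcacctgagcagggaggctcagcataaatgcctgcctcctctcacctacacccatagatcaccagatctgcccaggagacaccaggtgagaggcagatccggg
Saa2, chr7:46751583-46751882, plus strand: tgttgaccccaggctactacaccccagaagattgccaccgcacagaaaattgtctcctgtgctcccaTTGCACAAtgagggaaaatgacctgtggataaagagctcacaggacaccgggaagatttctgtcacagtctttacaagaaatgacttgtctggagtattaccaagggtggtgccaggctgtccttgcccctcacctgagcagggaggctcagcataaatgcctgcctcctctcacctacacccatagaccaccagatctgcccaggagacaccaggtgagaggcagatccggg
Orm2, chr4:63362199-63362498, plus strand: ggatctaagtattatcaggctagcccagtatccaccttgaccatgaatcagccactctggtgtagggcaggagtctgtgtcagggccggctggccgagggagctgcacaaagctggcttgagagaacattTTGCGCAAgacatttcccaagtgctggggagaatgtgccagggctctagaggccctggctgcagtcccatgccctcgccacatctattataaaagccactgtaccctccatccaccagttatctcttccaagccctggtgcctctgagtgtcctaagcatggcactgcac
Lcn2, chr2:32387690-32387989, minus strand: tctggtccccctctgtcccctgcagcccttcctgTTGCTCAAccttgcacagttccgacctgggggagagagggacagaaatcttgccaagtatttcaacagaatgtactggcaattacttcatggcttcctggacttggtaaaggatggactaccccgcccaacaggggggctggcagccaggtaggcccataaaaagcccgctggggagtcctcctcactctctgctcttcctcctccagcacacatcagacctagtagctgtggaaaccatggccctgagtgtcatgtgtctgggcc
The promoters of Saa1 and its paralog Saa2 have 95.7% of their bases in matching blocks and the same 8 letters at the match. The match begins 182 bases before the start in Saa1, 183 in Saa2, 120 in Orm2 and 216 in Lcn2. The STAT motif TTCNNNGAA was present in 6 of the 28 (21.4%) and in 8.46% of the genes tested. The 6 were Apcs, Fga, Fgb and Itih4, which rose, and Hamp and Steap4, which did not. Among the 17 that rose it was thus present in 4 (23.5%), near the share of all 28. None of the 28 held the E-box CACGTG, which was present in 11.8% of the genes tested.

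Across all 12699 genes tested by edgeR's quasi-likelihood test, 772 (6.08%) changed at an adjusted p under 0.05, of which 372 (2.93%) were higher and 400 (3.15%) lower with anti-DBI. Below, rose and fell refer to this test. Most of these changes were small. In 506 of the 772 (65.5%) the fold was under 1.5, in 172 it lay between 1.5 and 2, and in 94 (0.74% of the genes tested) it was at least 2. The tail of large changes was mostly upward: 55 of these 94 were higher, as were 23 of the 30 whose log2 fold change was 1.5 or more in either direction. All 5 RCD anti-DBI livers lay above all 5 RCD IgG livers for 400 genes (3.15%) and below them for 445 genes (3.5%), and 575 of the 772 changed genes were among them. Because the livers were measured in bulk, more cells of a type and more RNA per cell cannot be told apart. A fit over all 30 livers called 333 genes, and leaving out RCD anti-DBI 3 or RCD IgG 5 gave 470 and 471.

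**Figure D1:**
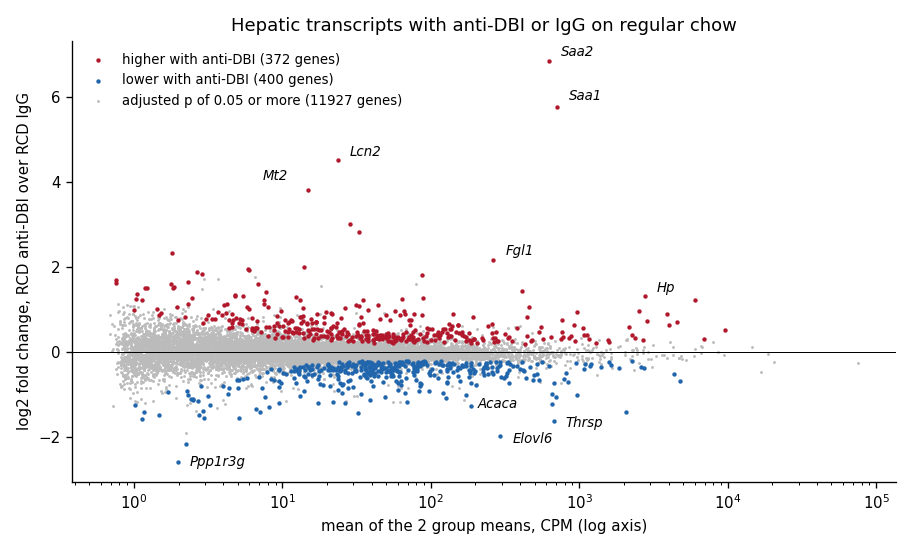
Log2 fold change of RCD anti-DBI over RCD IgG (vertical axis) against the mean level in CPM (horizontal log axis) for the 12699 genes tested, with the 372 higher genes in red, the 400 lower genes in blue and the others in grey. The largest changes are upward and belong to Saa2 (6.86), Saa1 (5.78) and Lcn2 (4.52).

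Serum amyloid A mRNAs showed the largest fold changes. Saa1 (ENSMUSG00000074115, chromosome 7, 46740497 to 46742980) measured 1412, 1168, 673, 2553 and 1204 CPM in the RCD anti-DBI livers, against 40.7, 25.9, 28.9, 15.9 and 17.1 CPM in the RCD IgG livers. Even the lowest RCD anti-DBI liver exceeded the highest RCD IgG liver by more than an order of magnitude, while the 5 anti-DBI livers differed widely among themselves, with replicate 4 highest and replicate 3 lowest (log2 fold change 5.78, standard error 0.37, edgeR adjusted p = 2.27e-06). Saa2 (ENSMUSG00000057465, chromosome 7, 46751790 to 46754313), its neighbour and paralog, measured 1260, 919, 393, 2548 and 1127 CPM with anti-DBI, against 15.1, 11.8, 12.3, 6.95 and 8.18 CPM with IgG. Its livers ranked as those of Saa1 did, with replicate 4 highest and replicate 3 lowest (log2 fold change 6.86, standard error 0.46, edgeR adjusted p = 2.99e-06). Saa3, the form made mainly outside hepatocytes, measured 7.54, 10.9, 4.76, 5.94 and 5.596 CPM with anti-DBI, against 2.66, 4.34, 2.90, 1.44 and 2.27 CPM with IgG. It was higher in all 5 anti-DBI livers, but replicate 2 and not replicate 4 had the highest value (log2 fold change 1.35, standard error 0.28, edgeR adjusted p = 0.0107). How the authors' counting treated reads that fit several of these near-identical genes is not given, so the level of each paralog on its own is uncertain.

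Lcn2 (ENSMUSG00000026822, chromosome 2, 32384633 to 32388252) encodes lipocalin 2, which sequesters bacterial siderophores. It measured 26.1, 31.7, 20.7, 120.5 and 27.8 CPM in the RCD anti-DBI livers, against 2.29, 1.86, 2.54, 1.44 and 1.91 CPM in the RCD IgG livers. The groups were far apart, and RCD anti-DBI 4 stood well above the other 4 (log2 fold change 4.52, standard error 0.56, edgeR adjusted p = 0.000517). Without RCD anti-DBI 4 the log2 fold change was 3.74. Orm2 (ENSMUSG00000061540, chromosome 4, 63362449 to 63365878), an orosomucoid that carries drugs and lipids in plasma, measured 81.4, 56.7, 31.9, 80.5 and 37.8 CPM with anti-DBI, against 11.3, 7.61, 5.08, 10.1 and 6.63 CPM with IgG. Replicates 1 and 4 were highest, and the lowest anti-DBI liver was still above every IgG liver (log2 fold change 2.83, standard error 0.28, edgeR adjusted p = 0.000117). Fgl1 (ENSMUSG00000031594, chromosome 8, 41191434 to 41215156), a secreted fibrinogen-like protein of hepatocytes, measured 304, 420.4, 439, 582 and 419 CPM with anti-DBI, against 100.5, 95.5, 99.8, 99.4 and 83.6 CPM with IgG. The IgG livers hardly varied, and all 5 anti-DBI livers lay above them (log2 fold change 2.18, standard error 0.13, edgeR adjusted p = 2.27e-06).

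Abundant plasma proteins also rose. Haptoglobin (Hp, ENSMUSG00000031722, chromosome 8, 109575128 to 109579172), which binds free haemoglobin, measured 4094, 3814, 3569, 4456 and 3739 CPM with anti-DBI, against 1402, 1920, 1502, 1586 and 1448 CPM with IgG. The spread within each group was small beside the gap between them (log2 fold change 1.32, standard error 0.093, edgeR adjusted p = 3.65e-06). Itih4, which belongs to the heavy chains of inter-alpha-trypsin inhibitor, averaged 3321 ± 298 CPM with anti-DBI and 1696 ± 58.3 CPM with IgG (SD, n = 5 each, log2 fold change 0.97, standard error 0.070, edgeR adjusted p = 3.65e-06). Lrg1, a leucine-rich glycoprotein of plasma, averaged 602 ± 103 CPM with anti-DBI and 223 ± 17.2 CPM with IgG (SD, n = 5 each, log2 fold change 1.43, standard error 0.10, edgeR adjusted p = 3.65e-06). Hemopexin (Hpx), which binds free haem, averaged 5043 ± 681 CPM with anti-DBI and 2712 ± 166 CPM with IgG (SD, n = 5 each, log2 fold change 0.90, standard error 0.091, edgeR adjusted p = 0.000117). In all of these the groups did not overlap. The 3 fibrinogen chains moved alike, with log2 fold changes of 0.71 for Fga, 0.64 for Fgb and 0.74 for Fgg.

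**Figure D2:**
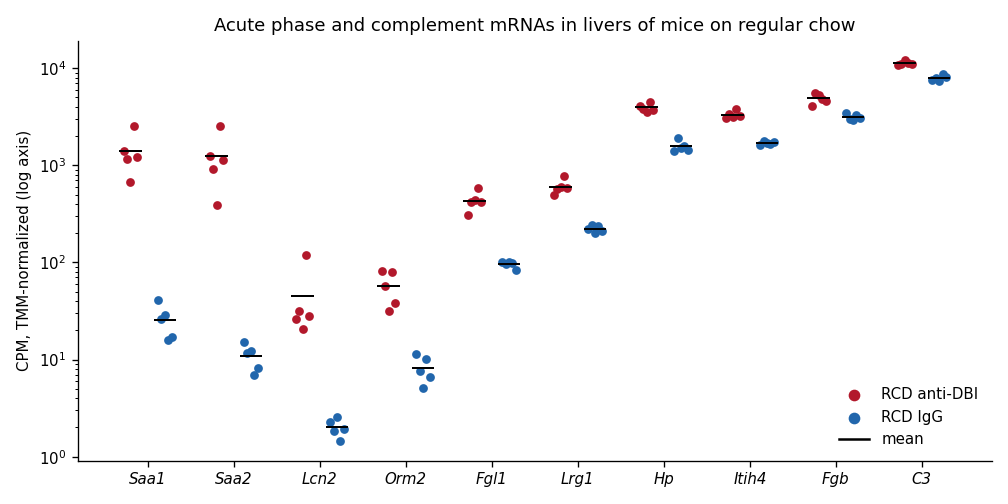
Levels in CPM (vertical log axis) of 10 acute phase and complement genes in the 5 RCD anti-DBI livers (red, left of each pair) and the 5 RCD IgG livers (blue, right), with a line at each group's mean. The groups do not overlap for any gene shown, and Lcn2 in RCD anti-DBI 4 stands above the other anti-DBI livers.

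Of the 36 tested genes for acute phase secreted proteins, 21 rose and none fell, beside 2.93% higher and 3.15% lower over all genes. The median log2 fold change of the 36 was 0.70, whereas over all genes tested it was 0.00148. Besides those above, the genes that rose were Apcs (1.27), Serpina1e (1.24), Lbp (0.97), Itih3 (0.95), Serpina3n (0.82), Orm1 (0.77), Mbl1 (0.65) and Cp (0.40). Apcs encodes serum amyloid P component, Serpina1e an alpha-1-antitrypsin, Lbp the lipopolysaccharide-binding protein, Mbl1 a mannose-binding lectin and Cp ceruloplasmin. The remaining 15 did not pass. They included Crp, which is not a major acute phase protein in mice (log2 fold change 0.22, standard error 0.081, edgeR adjusted p = 0.137), and Hamp, which encodes the iron hormone hepcidin. Hamp measured 728, 639, 669.7, 531 and 270.5 CPM with anti-DBI, against 775, 1185, 749, 1121 and 905 CPM with IgG. All 5 anti-DBI livers were below all IgG livers, with replicate 5 far below the rest (log2 fold change -0.74, standard error 0.22, edgeR adjusted p = 0.059). The count of 21 was 19 in the fit over all 30 livers and 21 or 22 without any 1 liver.

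Of 12 negative acute phase plasma proteins, whose genes are known to fall in an acute phase response, Rbp4 (-0.22, retinol-binding protein) and Serpina6 (-0.58, the carrier of glucocorticoids) fell, and Serpina7 rose, beside 2.93% higher and 3.15% lower over all genes. Serpina7, which encodes thyroxine-binding globulin, measured 58.0, 64.5, 62.6, 59.1 and 55.9 CPM with anti-DBI, against 25.5, 31.2, 35.3, 20.6 and 26.3 CPM with IgG. Every anti-DBI liver exceeded every IgG liver (log2 fold change 1.11, standard error 0.11, edgeR adjusted p = 0.000117). Albumin itself did not pass, with 69424 ± 7884 CPM with anti-DBI and 82399 ± 6878 CPM with IgG (SD, n = 5 each, log2 fold change -0.25, standard error 0.10, edgeR adjusted p = 0.18). Rbp4 lost its call in 14 of 18 alternatives, among them limma (adjusted p over all alternatives up to 0.489).

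Among 21 genes of interleukin-6 and interleukin-1 receptors and STAT3 signalling, none rose and 2 fell by edgeR, beside 3.15% lower over all genes. Of the 21, DESeq2 called 1 higher and 3 lower. At an unadjusted p under 0.05, 3 were higher and 5 lower. Il6ra, the interleukin-6 receptor, measured 51.7, 59.5, 62.9, 70.7 and 86.4 CPM with anti-DBI, against 88.7, 85.3, 90.4, 93.2 and 90.3 CPM with IgG. Replicate 5 of the anti-DBI group lay within the IgG range and the other 4 below it (log2 fold change -0.44, standard error 0.11, edgeR adjusted p = 0.0273). Cebpb, a C/EBP factor that interleukin-6 induces, measured 33.8, 40.5, 35.8, 54.0 and 35.8 CPM with anti-DBI, against 41.7, 61.9, 59.3, 69.1 and 68.2 CPM with IgG. The groups overlapped through RCD anti-DBI 4 and RCD IgG 1 (log2 fold change -0.59, standard error 0.14, edgeR adjusted p = 0.0259). Both lost their call in the fit over all 30 livers and without RCD IgG 5, among other livers. Stat3, Socs3 (the feedback inhibitor of STAT3), Cebpa and Cebpd did not pass, with log2 fold changes of 0.21, 0.43, -0.05 and -0.42. None of 14 NF-kB feedback or adhesion genes and none of 16 pattern recognition genes passed by edgeR. At an unadjusted p under 0.05 there were 2 and 5 such genes, and DESeq2 called 1 and 0.

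Of 28 complement genes tested, 12 rose and none fell, beside 2.93% higher and 3.15% lower over all genes, with a median log2 fold change of 0.32. C3, the central component, measured 10788, 11052, 12216, 11357 and 11054 CPM with anti-DBI, against 7529, 7867, 7321, 8603 and 8173 CPM with IgG. Within each group the values were close, and the groups were apart (log2 fold change 0.52, standard error 0.070, edgeR adjusted p = 0.000857). Others that rose were C8a (0.64), C4b (0.59), C9 (0.59), Hc (0.57), C6 (0.47), C1qc (0.45), C8b (0.42), Cfi (0.37), Serping1 (0.33) and C4bp (0.31). They cover the classical pathway (C4b and C1qc), the terminal components (C6, C8a, C8b, C9 and Hc, which encodes C5) and the regulators factor I, C1 inhibitor and C4b-binding protein. C1qc, which is made mainly by macrophages, was the only one of the 12 whose groups overlapped. The count was 5 in the fit over all 30 livers. In coagulation and fibrinolysis 3 of 24 rose, namely Cpb2, Serpinf2 and Plg (0.35, 0.35 and 0.29), all of them genes of clot lysis or its inhibition, and none fell. In the fit over all 30 livers none of these 3 passed.

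Metallothioneins, which bind zinc and copper and are induced by metals, glucocorticoids and interleukin-6, rose steeply. Mt1 (ENSMUSG00000031765, chromosome 8, 94179082 to 94180327) measured 13.9, 55.1, 62.9, 77.4 and 44.7 CPM in the RCD anti-DBI livers, against 5.68, 6.82, 8.71, 6.05 and 4.00 CPM in the RCD IgG livers. RCD anti-DBI 1 was the lowest of its group, yet above all IgG livers (log2 fold change 3.02, standard error 0.37, edgeR adjusted p = 0.000517). Its neighbour Mt2 (ENSMUSG00000031762, chromosome 8, 94172664 to 94173568) measured 3.88, 28.6, 39.3, 46.8 and 19.5 CPM with anti-DBI, against 2.54, 2.04, 1.73, 1.97 and 1.64 CPM with IgG. Again RCD anti-DBI 1 was lowest, here only just above the highest IgG liver (log2 fold change 3.81, standard error 0.54, edgeR adjusted p = 0.00113). Of 13 metallothionein and zinc transporter genes, the zinc importers Slc39a1 (0.35) and Slc39a8 (0.37) also rose and none fell. Of 17 glucocorticoid-induced genes only Sgk1 (0.37) rose besides the metallothioneins, Lpin1 fell, and the median was -0.26. Beside both lists stand 2.93% higher and 3.15% lower over all genes.

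Iron handling changed in both directions, with 5 of 26 genes higher and 5 lower, beside 2.93% higher and 3.15% lower over all genes. Higher were Hp and Hpx, Steap3 (0.47), Cp (0.40) and Tfr2 (0.29), and lower were Hamp2 (-1.43), Id1 (-0.84), Tfrc (-0.75), Smad7 (-0.57) and Aco1 (-0.23). Steap3 reduces iron released from transferrin, Tfr2 is the hepatic sensor of iron-loaded transferrin, and Tfrc is the transferrin receptor. Hamp2, a paralog of the hepcidin gene, measured 11.1, 20.2, 15.04, 18.9 and 22.6 CPM with anti-DBI, against 42.8, 58.3, 33.5, 42.0 and 58.2 CPM with IgG. All anti-DBI livers were below all IgG livers (log2 fold change -1.43, standard error 0.19, edgeR adjusted p = 0.000623). Id1 and Smad7 are targets of the BMP pathway that also drives hepcidin. Smad7 measured 14.2, 13.3, 16.9, 14.6 and 12.3 CPM with anti-DBI, against 19.2, 21.4, 23.1, 22.1 and 20.4 CPM with IgG, with the groups apart (log2 fold change -0.57, standard error 0.091, edgeR adjusted p = 0.00209). Tfrc and Id1 lost their call without any 1 of 8 of the 10 livers.

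Of 25 genes of fatty acid synthesis and its regulators, 7 fell and 2 rose, beside 3.15% lower and 2.93% higher over all genes. The median log2 fold change of the 25 was -0.38. Srebf1, the gene of SREBP-1, measured 313, 373, 414, 575 and 534 CPM with anti-DBI, against 902, 1005, 659.9, 861 and 912 CPM with IgG. The groups were apart, with RCD anti-DBI 4 and 5 nearest to the IgG livers (log2 fold change -0.97, standard error 0.15, edgeR adjusted p = 0.00195). Acaca, the acetyl-CoA carboxylase that commits carbon to fatty acids, measured 83.5, 118, 116, 142 and 117 CPM with anti-DBI, against 262, 205, 244, 188 and 260.4 CPM with IgG, also with the groups apart (log2 fold change -1.01, standard error 0.13, edgeR adjusted p = 0.000517). Fasn, the fatty acid synthase, measured 654, 660.1, 709, 2068 and 1590 CPM with anti-DBI, against 2999, 2801, 2738, 2110 and 4408 CPM with IgG. RCD anti-DBI 1, 2 and 3 formed a tight low set, whereas RCD anti-DBI 4 reached nearly the lowest IgG liver (log2 fold change -1.41, standard error 0.32, edgeR adjusted p = 0.0174).

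Elovl6, which elongates palmitate, had the largest fall of the 7. It measured 88.5, 88.4, 97.3, 204 and 116 CPM with anti-DBI, against 558, 403, 447, 214 and 728 CPM with IgG. RCD anti-DBI 4 and RCD IgG 4 nearly met, and the other livers were far apart (log2 fold change -1.98, standard error 0.30, edgeR adjusted p = 0.00145). Thrsp, a lipogenic regulator, measured 147, 183, 206, 692 and 426 CPM with anti-DBI, against 990.3, 1138, 706, 806 and 1414 CPM with IgG, with RCD anti-DBI 4 and 5 again highest in their group (log2 fold change -1.61, standard error 0.36, edgeR adjusted p = 0.018). The citrate lyase Acly (-1.22) and malic enzyme Me1 (-0.73), which supply acetyl-CoA and NADPH, fell too. Scd1, the main stearoyl-CoA desaturase, did not pass, at 9818, 13318, 14118, 18535 and 14046 CPM with anti-DBI, against 23259, 17051, 19620, 13760 and 23207 CPM with IgG. Its groups overlapped through RCD anti-DBI 4 and RCD IgG 4 (log2 fold change -0.47, standard error 0.17, edgeR adjusted p = 0.116). Of the 7, only Srebf1 and Elovl6 kept the call in each alternative, and 2 remained called in the fit over all 30 livers. Without RCD anti-DBI 3, and again without RCD IgG 5, Fasn, Thrsp and Me1 did not pass, and the number lower was then 4. Without RCD anti-DBI 4 it was 11.

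The exceptions were Insig2 and Elovl3. Insig2, which retains SREBP in the endoplasmic reticulum, measured 176, 92.9, 113, 92.0 and 90.9 CPM with anti-DBI, against 69.3, 76.8, 47.6, 59.1 and 54.8 CPM with IgG. RCD anti-DBI 1 was highest, and every anti-DBI liver exceeded every IgG liver (log2 fold change 0.88, standard error 0.18, edgeR adjusted p = 0.011). Elovl3, an elongase of very long chains with a daily rhythm and higher levels in males, measured 236, 115, 111, 101.5 and 114 CPM with anti-DBI, against 39.0, 41.5, 49.8, 36.2 and 26.6 CPM with IgG. RCD anti-DBI 1 was far above the other anti-DBI livers, and all 5 were above the IgG livers (log2 fold change 1.81, standard error 0.23, edgeR adjusted p = 0.000517). In triglyceride synthesis and lipid droplets, 2 of 25 genes fell, Lpin1 (-1.26) and Lpin2 (-0.48), both phosphatidate phosphatases. Over all genes, 3.15% were lower and 2.93% higher. In cholesterol synthesis and uptake Hmgcs1 (0.83) and Srebf2 (0.27) rose and none of 29 fell. Both lost their call in the fit over all 30 livers, and Srebf2 did so in 10 of 18 alternatives. Among 36 genes of fatty acid oxidation and ketone synthesis only Crot, which moves medium-chain acyl groups out of peroxisomes, rose. That count was near the 2.93% higher over all genes. Crot measured 894, 589, 626, 418 and 599.5 CPM with anti-DBI, against 282, 351, 304, 326 and 229.7 CPM with IgG, with no overlap (log2 fold change 1.07, standard error 0.16, edgeR adjusted p = 0.00165).

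Of 34 genes of glycolysis, gluconeogenesis and glycogen, 15 fell and 1 rose, beside 3.15% and 2.93% over all genes, and the median log2 fold change was -0.34. In the glycolytic arm, Pklr, the liver pyruvate kinase, measured 303, 363, 348, 701 and 540.4 CPM with anti-DBI, against 974, 869.5, 959, 684 and 1210 CPM with IgG. RCD anti-DBI 4 overlapped with RCD IgG 4, and the other livers were apart (log2 fold change -1.06, standard error 0.21, edgeR adjusted p = 0.00864). Gpi1 (-0.54), Eno1 (-0.36), Pfkfb1 (-0.48) and the transketolase Tkt (-0.41) fell as well.

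Genes of glycogen synthesis and of its breakdown were among the 15. Gys2, the liver glycogen synthase, measured 236, 233, 212, 234 and 308 CPM with anti-DBI, against 362, 339.8, 392, 411 and 365 CPM with IgG. Every anti-DBI liver was below every IgG liver (log2 fold change -0.61, standard error 0.092, edgeR adjusted p = 0.00147). Ugp2, which makes UDP-glucose, measured 338, 322, 315, 358 and 402 CPM with anti-DBI, against 581, 520.3, 559.7, 480.3 and 520.3 CPM with IgG, with the groups apart (log2 fold change -0.62, standard error 0.077, edgeR adjusted p = 0.000517). The branching enzyme Gbe1 (-0.56) and the phosphorylase Pygl (-0.32) fell too. Among the regulatory subunits that direct protein phosphatase 1 to glycogen, Ppp1r3g measured 0.423, 0.374, 0.596, 1.26 and 0.0835 CPM with anti-DBI, against 2.17, 2.30, 4.27, 2.72 and 5.54 CPM with IgG. All anti-DBI livers were below all IgG livers, with replicate 5 lowest (log2 fold change -2.58, standard error 0.43, edgeR adjusted p = 0.00264). Ppp1r3c measured 68.3, 62.8, 79.7, 45.8 and 67.7 CPM with anti-DBI, against 40.9, 39.2, 35.5, 28.5 and 34.5 CPM with IgG and was the gene that rose (log2 fold change 0.87, standard error 0.13, edgeR adjusted p = 0.00147). Of the gluconeogenic genes, the glucose phosphate translocase Slc37a4 (-0.74), the glucose carrier Slc2a2 (-0.50), Fbp1 (-0.29) and Foxo1 (-0.38) fell. None of 22 genes of insulin, IGF1 and growth hormone signalling passed by edgeR or DESeq2, and 4 had an unadjusted p under 0.05. The fit over all 30 livers called 6 lower in place of 15, and there were 10 without RCD anti-DBI 3 or without RCD IgG 5 and 13 to 16 without any other liver.

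**Figure D3:**
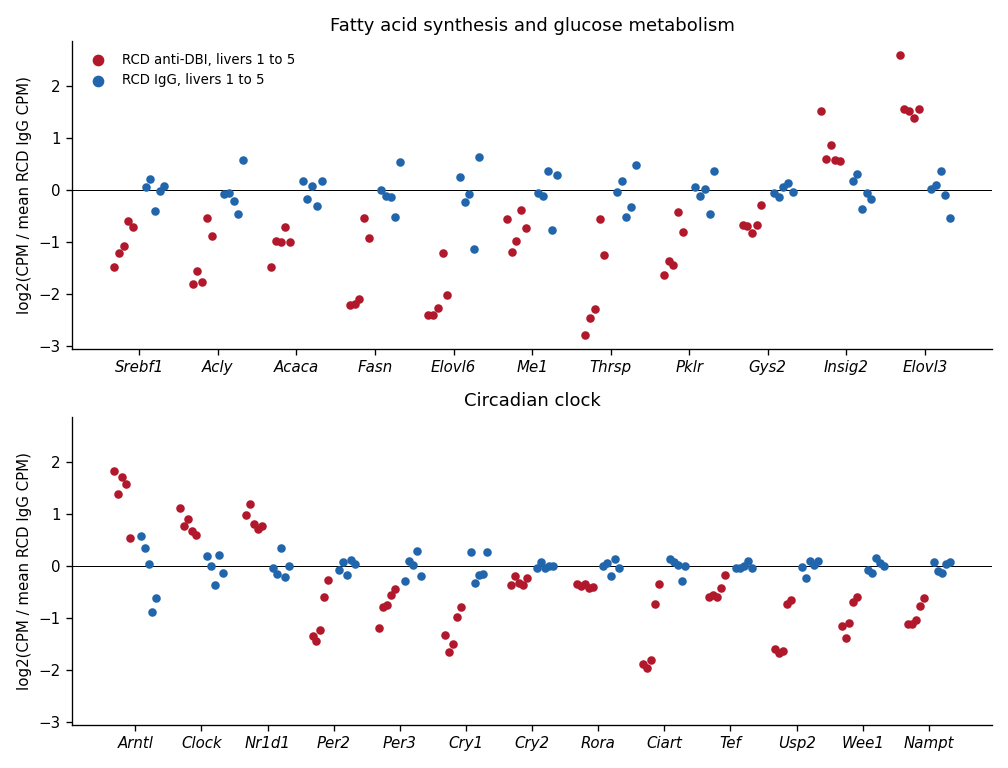
Level of each gene in each liver relative to the mean of RCD IgG, as log2 of the CPM ratio (vertical axis), for genes of fatty acid and glucose metabolism (top) and of the clock (bottom), with RCD anti-DBI livers 1 to 5 in red, left, and RCD IgG livers 1 to 5 in blue, right. Within the anti-DBI group, livers 4 and 5 lie closest to the IgG livers for Fasn, Thrsp, Pklr, Per2, Ciart and Usp2.

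Of 26 genes of the core clock and its outputs, 3 rose and 11 fell, beside 2.93% higher and 3.15% lower over all genes, with a median log2 fold change of -0.29. Both tested activators rose. Arntl measured 3.45, 2.53, 3.20, 2.89 and 1.42 CPM with anti-DBI, against 1.45, 1.24, 0.998, 0.529 and 0.636 CPM with IgG. RCD anti-DBI 5 lay within the range of the IgG livers, at a low level for every liver (log2 fold change 1.52, standard error 0.30, edgeR adjusted p = 0.00896). Clock measured 30.03, 23.6, 26.0, 22.04 and 21.1 CPM with anti-DBI, against 15.8, 13.9, 10.8, 16.1 and 12.5 CPM with IgG, without overlap (log2 fold change 0.83, standard error 0.12, edgeR adjusted p = 0.00137). Nr1d1, the gene of REV-ERB alpha, a repressor of Arntl, measured 194, 225, 170.0, 159 and 166 CPM with anti-DBI, against 94.7, 87.9, 124, 83.8 and 97.2 CPM with IgG and also rose (log2 fold change 0.91, standard error 0.11, edgeR adjusted p = 0.000517). Its relative Nr1d2 had a log2 fold change of -0.20 and did not pass.

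Of the PER and CRY repressors, Per2, Per3, Cry1 and Cry2 fell, and Per1 did not pass (log2 fold change -0.84). Per2 measured 30.7, 28.9, 33.4, 52.2 and 64.9 CPM with anti-DBI, against 74.9, 83.0, 69.8, 84.8 and 80.3 CPM with IgG. RCD anti-DBI 1, 2 and 3 were lowest, and RCD anti-DBI 4 and 5 lay in between (log2 fold change -0.90, standard error 0.19, edgeR adjusted p = 0.0114). Cry1 measured 5.29, 4.21, 4.69, 6.68 and 7.68 CPM with anti-DBI, against 15.9, 10.5, 11.7, 11.8 and 15.9 CPM with IgG, with no overlap (log2 fold change -1.20, standard error 0.17, edgeR adjusted p = 0.00117). The log2 fold change was -0.73 for Per3 and -0.29 for Cry2, whose groups were also apart. Ciart, a repressor of CLOCK and BMAL1, measured 8.25, 7.86, 8.71, 18.3 and 23.97 CPM with anti-DBI, against 33.3, 32.3, 31.0, 25.02 and 30.6 CPM with IgG. Here too RCD anti-DBI 4 and 5 were closest to the IgG livers (log2 fold change -1.18, standard error 0.26, edgeR adjusted p = 0.0161).

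The nuclear receptor gene Rora fell as well, with a log2 fold change of -0.38. The outputs Tef (-0.46), Wee1 (-0.95), Nampt (-0.92) and Usp2 (-1.18) also fell. Usp2, a deubiquitinase with a daily rhythm, measured 31.9, 30.1, 31.3, 58.5 and 61.6 CPM with anti-DBI, against 95.4, 82.5, 104, 98.6 and 103 CPM with IgG. RCD anti-DBI 4 and 5 stood above the other anti-DBI livers and below every IgG liver. Dbp, another output with a strong rhythm, did not pass (log2 fold change -0.30, standard error 0.10, edgeR adjusted p = 0.113). The E-box CACGTG, through which CLOCK and BMAL1 act, was present in 5 of the 20 clock genes with a promoter (25%). Its share among the genes tested was 11.8%. The 5 were Cry1, Tef and Ciart, which fell, and Bhlhe41 and Per1, which did not pass. The Ciart promoter is shown because it holds 3 E-boxes, in capitals.
Ciart, chr3:95882179-95882478, minus strand: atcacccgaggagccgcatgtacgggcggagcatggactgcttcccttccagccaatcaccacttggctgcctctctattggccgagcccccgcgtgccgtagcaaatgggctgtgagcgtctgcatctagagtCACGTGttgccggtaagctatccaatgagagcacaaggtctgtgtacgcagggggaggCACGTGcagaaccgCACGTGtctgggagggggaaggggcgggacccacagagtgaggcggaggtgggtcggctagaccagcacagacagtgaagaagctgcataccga
The clock counts of 3 and 11 were 2 and 7 in the fit over all 30 livers. Whether the livers of both groups were taken at the same hour is not given, and its part in these values was not tested.

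**Figure D4:**
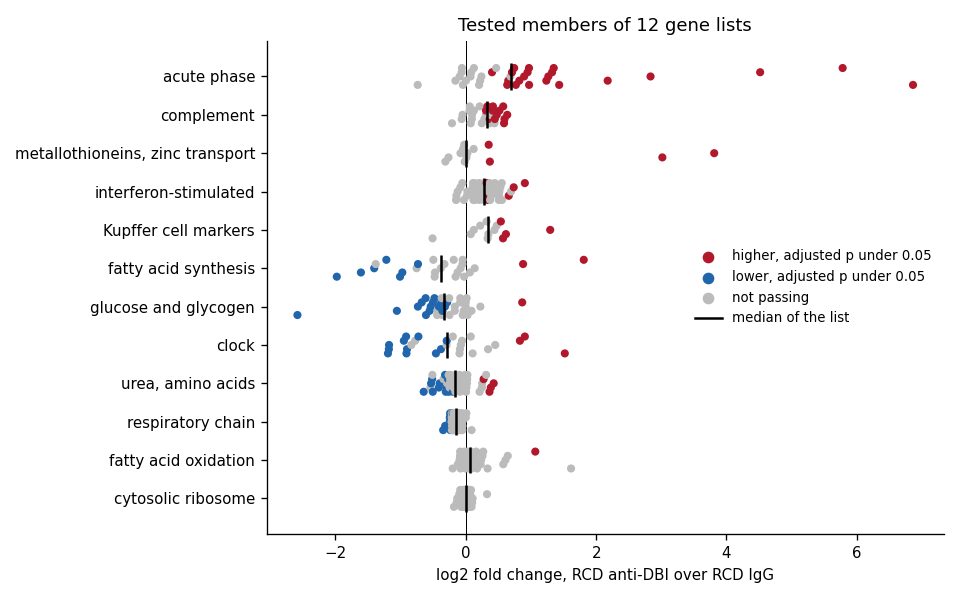
Log2 fold change of RCD anti-DBI over RCD IgG (horizontal axis) for each tested member of 12 gene lists (rows), coloured by call, with a black line at the median of the list. Acute phase and complement genes lie to the right, fatty acid synthesis, glucose and glycogen and clock genes mostly to the left, and ribosomal protein genes around 0.

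Of 48 genes of the urea cycle and amino acid catabolism, 12 fell and 4 rose, beside 3.15% lower and 2.93% higher over all genes. The median log2 fold change of the 48 was -0.16. Cps1, the entry enzyme of the urea cycle, measured 2853, 3806, 3608, 4395 and 3193 CPM with anti-DBI, against 5402, 4973, 4060, 5574 and 5537 CPM with IgG. RCD anti-DBI 4 overlapped with the lowest IgG liver (log2 fold change -0.52, standard error 0.12, edgeR adjusted p = 0.0177). Asl measured 357, 385, 401, 489 and 469 CPM with anti-DBI, against 607, 672, 609, 609 and 793 CPM with IgG, without overlap (log2 fold change -0.65, standard error 0.10, edgeR adjusted p = 0.00178). Gpt2 (-0.53), Prodh (-0.51), Gls2 (-0.41) and Arg1 (-0.27) were among the others that fell. Against the majority, Amt (0.43), Cbs (0.38), Kyat1 (0.36) and Glud1 (0.27) rose. The number that fell depended on single livers, with 3 lower without RCD IgG 5 and 19 without RCD IgG 3, and with 3 in the fit over all 30 livers.

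Of 76 nuclear-encoded respiratory chain genes, 8 fell and none rose, beside 3.15% lower over all genes, and 22 had all anti-DBI livers below all IgG livers, beside 3.5% over all genes. The largest change among the 8 was that of Ndufa5, a complex I subunit, at 32.9, 28.0, 29.0, 34.1 and 34.8 CPM with anti-DBI, against 37.1, 41.8, 40.5, 41.1 and 41.6 CPM with IgG (log2 fold change -0.35, standard error 0.071, edgeR adjusted p = 0.0109). Sdhb, of complex II, measured 149.8, 143, 142, 149 and 155 CPM with anti-DBI, against 174, 187, 185, 183 and 192 CPM with IgG (log2 fold change -0.32, standard error 0.052, edgeR adjusted p = 0.00259). In both, every anti-DBI liver was below every IgG liver, and the gap between the groups was small, as was the spread within them. In the citrate cycle 2 of 17 genes fell, among them Aco1 (-0.23), and all 17 had a negative log2 fold change. None of 13 transcripts of the mitochondrial genome passed by edgeR, although all 13 had a negative log2 fold change (median -0.20), 3 had an unadjusted p under 0.05 and DESeq2 called 2 lower. The respiratory chain count was 2 in the fit over all 30 livers, 3 without RCD anti-DBI 2 or 3, 12 without RCD anti-DBI 1 and 20 by DESeq2. None of 74 cytosolic ribosomal protein genes and none of 36 proteasome genes passed by edgeR. At an unadjusted p under 0.05 there were 2 and 4, and DESeq2 called 0 and 1.

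Kupffer cells are macrophages that reside in the liver. Of their 13 markers, 4 rose and none fell by edgeR, beside 2.93% higher and 3.15% lower over all genes. DESeq2 called 6 of the 13 higher and 1 lower. The median log2 fold change was 0.35. Marco, a scavenger receptor, measured 22.1, 19.3, 15.2, 15.7 and 15.03 CPM with anti-DBI, against 12.6, 5.58, 5.90, 7.03 and 5.27 CPM with IgG. Every anti-DBI liver exceeded every IgG liver (log2 fold change 1.29, standard error 0.20, edgeR adjusted p = 0.00195). Cd5l, a secreted macrophage protein, measured 105, 154, 131, 149 and 178 CPM with anti-DBI, against 118, 84.5, 93.1, 109.8 and 88.2 CPM with IgG, and RCD anti-DBI 1 lay within the IgG range (log2 fold change 0.54, standard error 0.13, edgeR adjusted p = 0.0236). Folr2 (0.57) and Timd4 (0.62) also rose. The lineage markers Clec4f (log2 fold change 0.32, standard error 0.10, edgeR adjusted p = 0.0883) and Vsig4 (log2 fold change 0.44, standard error 0.13, edgeR adjusted p = 0.0571) did not pass. Summed over the list, the level was 447 to 659 CPM with anti-DBI and 404 to 517 CPM with IgG, so the groups overlapped. None of these 4 calls held in the fit over all 30 livers, and 9 of the 13 were called without RCD anti-DBI 1 but only 1 without RCD IgG 2.

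Of 17 tested markers of monocytes and recruited macrophages, 3 rose, Lyz2 (0.76), Mpeg1 (0.55) and Ctss (0.51), and none fell. The shares over all genes were 2.93% higher and 3.15% lower. Lyz2, which encodes lysozyme, measured 62.8, 130.0, 75.0, 73.2 and 124 CPM with anti-DBI, against 65.8, 45.3, 57.7, 52.1 and 54.4 CPM with IgG. RCD anti-DBI 2 and 5 were highest, and RCD anti-DBI 1 lay within the IgG range (log2 fold change 0.76, standard error 0.19, edgeR adjusted p = 0.0277). Summed, these markers stood at 263 to 437 CPM with anti-DBI and 229 to 287 CPM with IgG. The calls numbered 6 without RCD anti-DBI 1, 1 without RCD anti-DBI 2 or without RCD IgG 5, and 0 in the fit over all 30 livers. Of 16 neutrophil markers, 2 had enough counts to be tested, and the granule genes Mpo, Camp and Ltf were at 0 in all 10 livers. Itgb2, an integrin that other leukocytes share, rose (0.58), but lost its call in 11 of 18 alternatives, among them limma and the omission of any 1 of 8 livers. The neutrophil list summed to 14.0 to 26.7 CPM with anti-DBI and 11.8 to 16.6 CPM with IgG. None of the tested markers of endothelial cells (18), stellate cells (17), B and plasma cells (10), cholangiocytes (8), red blood cells (8), T and NK cells (3) or platelets (2) passed by edgeR or DESeq2. Over these lists 5 genes had an unadjusted p under 0.05. Some macrophage markers rose, as the acute phase genes did. Lyz2 was highest in RCD anti-DBI 2, as was the acute phase gene Saa3, and Saa1 was highest in RCD anti-DBI 4. The part of these markers in the acute phase result was not tested.

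Of 50 interferon-stimulated genes, 6 rose and none fell, beside 2.93% higher and 3.15% lower over all genes. Of the 50, 44 had a positive log2 fold change (median 0.28). Cmpk2, a nucleotide kinase, measured 6.42, 7.02, 4.84, 5.05 and 6.51 CPM with anti-DBI, against 3.62, 3.54, 2.81, 3.70 and 2.18 CPM with IgG. All anti-DBI livers were above all IgG livers, at low levels (log2 fold change 0.91, standard error 0.17, edgeR adjusted p = 0.00689). Rsad2 (0.74), which encodes the antiviral enzyme viperin, Ifi47 (0.66), Oasl1 (0.34), Iigp1 (0.34) and Ifi27 (0.32) were the others. The count was 2 in the fit over all 30 livers, and likewise without RCD anti-DBI 2 or without RCD IgG 5. None of 21 genes of class I and none of 9 of class II antigen presentation passed by edgeR. In class I, 3 had an unadjusted p under 0.05 and DESeq2 called 1, and in class II none did either. In the extracellular matrix list of 43 tested, Col5a3 (0.55), Col6a3 (0.48), Col18a1 (0.22) and the plasma protein vitronectin, Vtn (0.41), rose. Col27a1 (-0.73) and the inhibitor Timp3 (-0.48) fell. Over all genes, 2.93% were higher and 3.15% lower. Col5a3, Col6a3, Col18a1 and Col27a1 lost their call in the fit over all 30 livers, and in all Col18a1 did so in 11 and Col6a3 in 7 of 18 alternatives.

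Of 48 cytochrome P450 and xenobiotic receptor genes, 3 fell and 2 rose, near the 3.15% lower and 2.93% higher over all genes. Cyp2a5, a coumarin hydroxylase, measured 596, 561, 641, 616 and 796 CPM with anti-DBI, against 1118, 1195, 1497, 1412 and 1233 CPM with IgG. The groups were clearly apart (log2 fold change -1.01, standard error 0.10, edgeR adjusted p = 0.000117). Por, the reductase that supplies electrons to all microsomal P450 enzymes, averaged 378 ± 53.1 CPM with anti-DBI and 599 ± 83.0 CPM with IgG (SD, n = 5 each, log2 fold change -0.67, standard error 0.11, edgeR adjusted p = 0.00266). The glutathione transferases Gsta2 (-0.89), Gsta4 (-0.67) and Gsta3 (-0.35) were the 3 of 24 NRF2 targets that fell, and none rose. In the endoplasmic reticulum list of 47, Dnajb9 (-0.69), Eif2ak3 (-0.42) and Herpud1 (-0.40) fell and Sdf2l1 (0.77) rose. Beside this list and the NRF2 list, too, stand 3.15% lower and 2.93% higher over all genes. Of the genes with a higher level in female livers, 4 of 14 fell, Abcb1a (-1.40), Fmo2 (-1.21), Fmo1 (-0.45) and Hamp2, and Cyp2c40 (1.12) and Cyp2c69 (1.61) rose. These last are near-identical paralogs. Cyp2c40 lost its call without any 1 of 6 of the 10 livers and Cyp2c69 without any 1 of 7. Of 32 male-biased genes, Elovl3 and C8a rose and Keg1 (-0.41) fell. For both sex-biased lists the shares over all genes were 2.93% higher and 3.15% lower.

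The gene lists covered 177 of the 772 changed genes, and 595 lay outside them. Among those outside, the rule of the 12 highest-ranked genes in each direction named several. Eps8l2, an actin regulator, measured 101, 97.5, 95.2, 74.3 and 80.8 CPM with anti-DBI, against 38.0, 34.8, 44.0, 36.1 and 36.3 CPM with IgG. The groups were far apart beside the spread within each (log2 fold change 1.25, standard error 0.094, edgeR adjusted p = 5.57e-06). Cldn1, a tight junction protein of bile canaliculi, measured 44.7, 64.2, 57.0, 40.4 and 37.9 CPM with anti-DBI, against 23.3, 21.6, 18.5, 22.9 and 18.7 CPM with IgG (log2 fold change 1.22, standard error 0.14, edgeR adjusted p = 0.000274). Lower were the membrane peptidase Mme (-1.13), the lipid transfer protein Osbpl5 (-1.33) and the receptor kinase Erbb4 (-1.03). Mme measured 26.5, 19.7, 24.9, 24.5 and 26.1 CPM with anti-DBI, against 61.5, 57.3, 35.2, 55.2 and 57.3 CPM with IgG, with RCD IgG 3 below the other IgG livers and above all anti-DBI livers (log2 fold change -1.13, standard error 0.13, edgeR adjusted p = 0.00033). Of genes within the lists, the drug efflux pump Abcb1a measured 3.10, 2.90, 3.50, 5.57 and 4.34 CPM with anti-DBI, against 8.45, 11.1, 13.2, 9.83 and 8.91 CPM with IgG. The groups did not overlap (log2 fold change -1.40, standard error 0.18, edgeR adjusted p = 0.000623). Lpin1, listed above and a target of several hormones, measured 73.3, 85.9, 81.2, 194 and 116 CPM with anti-DBI, against 215, 181, 289, 223 and 412 CPM with IgG. The groups overlapped, and all the same the difference passed (log2 fold change -1.26, standard error 0.27, edgeR adjusted p = 0.0123). In the cell cycle list E2f8 rose and the cyclins Ccne1 (-1.003) and Ccne2 (-0.94) fell, of 29 tested. The shares over all genes were 2.93% higher and 3.15% lower. Ccne1 lost its call in 7 of 18 alternatives and Ccne2 in 7 of 17, mostly where 1 liver was left out. E2f8, a transcriptional repressor that promotes polyploidy of hepatocytes, measured 3.595, 2.53, 4.76, 3.56 and 3.17 CPM with anti-DBI, against 0.966, 0.708, 1.81, 1.06 and 1.09 CPM with IgG, at low levels throughout and with the groups apart (log2 fold change 1.64, standard error 0.25, edgeR adjusted p = 0.00152).

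Dbi, which encodes the target of the antibody, did not pass the test. It measured 586, 523, 539, 629.8 and 546 CPM in the RCD anti-DBI livers, against 538, 532, 583, 509 and 601 CPM in the RCD IgG livers, and the ranges overlapped throughout (log2 fold change 0.03, standard error 0.069, edgeR adjusted p = 0.856). The antibody binds the protein, so the mRNA is no check of neutralization. None of the 10 genes of the ACBP/DBI family and its partners passed by edgeR or DESeq2, and 1 had an unadjusted p under 0.05.

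The effect of the antibody on MCD, measured in 20 other livers, was set beside these values. There, 5696 of 13538 genes (42.1%) changed. Of the 760 RCD calls that were also tested on MCD, 249 changed in the same direction, 136 in the opposite one and 375 did not pass. The antibody by diet interaction, which tests the RCD effect minus the MCD effect, was called for 2752 of 14335 genes (19.2%) and for 362 of the 772 RCD calls (46.9%). Genes higher on RCD had a median log2 fold change of 0.49 on RCD and 0.27 on MCD, and genes lower on RCD a median of -0.42 on RCD and 0.02 on MCD. The RCD calls were chosen by their effect on RCD, which is a term of the interaction. Their share with an interaction and their larger medians on RCD are thus partly fixed by that choice. Among the MCD livers, replicates 5 and 10 of the anti-DBI group gave almost the same counts (8 genes differed over 1.5-fold out of 9440 compared). With the pair summed to 1 library, 5453 genes changed on MCD and 2687 showed an interaction.

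The acute phase genes split, and their levels in the IgG livers differed between the diets. Orm2 averaged 169 CPM in MCD IgG and 8.15 CPM in RCD IgG, Lcn2 335 and 2.01 CPM, and Hp 3489 and 1572 CPM. For Saa1 these means were 109 and 25.7 CPM, and for C3 10005 and 7898 CPM. The levels were scaled within each diet, and their part in the differences below was not tested. On MCD, Saa1 and Saa2 rose with log2 fold changes of 2.56 and 3.26, less than on RCD. The interaction, from 1 fit over all 30 livers, was 3.20, standard error 0.75, edgeR adjusted p = 0.0032 for Saa1 and 3.58, standard error 0.84, edgeR adjusted p = 0.0032 for Saa2. Hp had a log2 fold change of 0.16 on MCD, with adjusted p = 0.235 from edgeR, and differed between the diets (interaction 1.15, standard error 0.17, edgeR adjusted p = 4.4e-05). Orm2 did not pass on MCD (-0.03), and its interaction was called (2.85, standard error 0.60, edgeR adjusted p = 0.0014). Lcn2 fell on MCD (-1.48), opposite to RCD (interaction 5.98, standard error 0.68, edgeR adjusted p = 2e-06). By contrast, the effects on C3 (0.52 on RCD and 0.47 on MCD) and Fgb (0.64 and 0.80) had the same direction on both diets, and the interaction did not pass (for C3 0.03, standard error 0.11, edgeR adjusted p = 0.86, and for Fgb -0.18, standard error 0.21, edgeR adjusted p = 0.6).

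Among the metabolic and clock genes, Elovl6 fell on RCD and did not pass on MCD, with -0.28 on MCD (interaction -1.72, standard error 0.49, edgeR adjusted p = 0.014). Elovl3 rose more on MCD (3.46) than on RCD (1.81, interaction -1.67, standard error 0.50, edgeR adjusted p = 0.018). For Fasn, Srebf1 and Acaca the effect on MCD did not pass (-0.11, -0.35 and -0.44), nor did the interaction (for Fasn -1.31, standard error 0.83, edgeR adjusted p = 0.28). Usp2 fell on RCD and rose on MCD (0.50, interaction -1.69, standard error 0.26, edgeR adjusted p = 6.6e-05). By the rule for this comparison, the genes with the smallest interaction p that were relatively higher on RCD included Rab11fip4, an endosomal adaptor (1.60 on RCD and -0.39 on MCD), Tmem176a (0.61 and -0.31) and Syt12 (1.503 and -1.13). Those relatively lower on RCD included the urate oxidase gene Uox (-0.34 on RCD and 1.09 on MCD) and Fmo1 (-0.45 and 0.36).

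**Figure D5:**
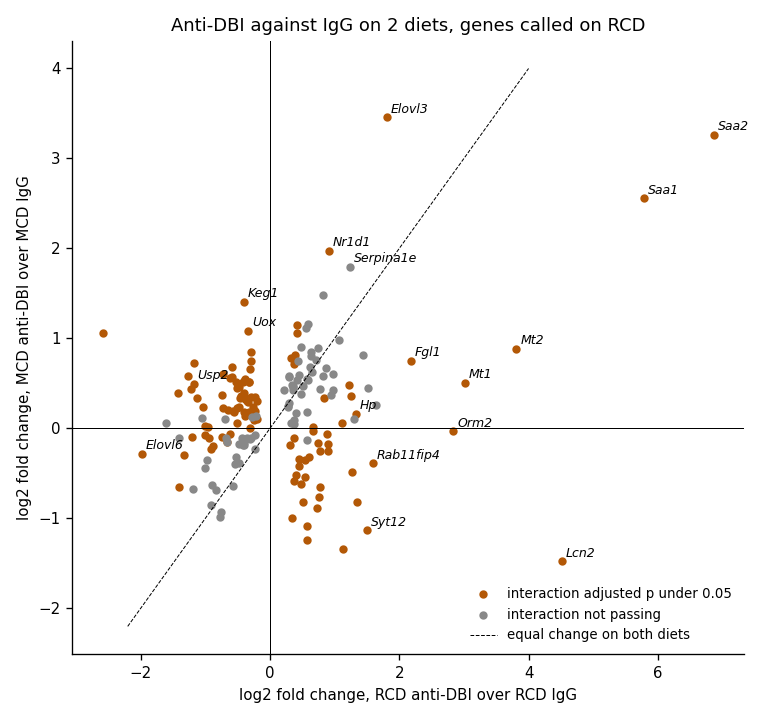
Log2 fold change of anti-DBI over IgG on RCD (horizontal axis) and on MCD (vertical axis) for 191 genes called on RCD and followed here, in orange where the antibody by diet interaction passed (115 genes) and in grey where it did not, with a dashed line of equal change. Saa1 and Saa2 lie at the far right below the dashed line, and Lcn2, Rab11fip4 and Syt12 lie below 0 on MCD.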

How the data were processed

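The deposited table held raw gene counts of total liver RNA in 30 libraries. Per the file headers and the submitters' processing notes, the authors aligned reads with STAR to GRCm38 and counted them per gene, while the study's methods name HISAT2 and GRCm39. Strand setting and treatment of reads that match several genes are not given in the sources used here, so genes overlapping on opposite strands and near-identical paralogs are uncertain. Further columns of the table with the authors' normalized signal, fold changes and p-values were not used, and GRCm38 coordinates are those of the file.

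The 10 RCD livers were grouped by their labels and tested with edgeR 4.0.16 in R 4.3.3 (filterByExpr, TMM scaling, quasi-likelihood test, Benjamini-Hochberg adjustment over all genes tested, threshold 0.05). CPM are TMM-scaled counts per 1e+06, without adjustment for gene length, and are compared within a gene only. Group means are given ± SD and log2 fold changes with the standard error |log2 fold change| divided by the square root of F. The MCD effect was fitted over 20 livers and the interaction over 30. The study counts mice as replicates, while the labels only number the livers.

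The comparison, the 56 gene lists (1275 genes tested) and the rules were chosen with earlier results of these data known. Named were the 12 genes per direction with the smallest p among called genes with a fold of 2 or more and a mean of at least 1 CPM (predicted genes left out), up to 4 called members per list, called members that moved against their list, Dbi, and 6 genes per direction of the interaction. Other genes, including the remaining called members of several lists and Hamp, Crp, Alb, Stat3, Socs3, Cebpa, Cebpd, Scd1, Dbp, Clec4f, Vsig4, Per1 and Nr1d2, were chosen after their values were seen. Alternatives were DESeq2 1.42.0, limma 3.58.1 on log2(CPM + 1), 2 other scalings, no filter, at least 10 counts in every library, all 30 livers, a replicate block and leaving out each liver. Values of several genes are not reported here. Code was tested on simulated data first.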

Additional observations from a re-analysis of the deposited data

Results flagged for a closer look

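In 18 of 330 groups of 5 livers checked for the 165 genes described, 1 liver lay apart from the other 4 by Dixon's test at 95%, which chance gives in about 1 in 20 groups. RCD anti-DBI 1 was highest for Elovl3 (236 CPM, next 115) and highest for Insig2 (176 CPM, next 113). RCD anti-DBI 4 was highest for Lcn2 (120.5 CPM, next 31.7), highest for Elovl6 (204 CPM, next 116), highest for Ccne1 (2.60 CPM, next 1.498), highest for Serpina3n (804 CPM, next 546) and highest for Arg1 (1220 CPM, next 1075). RCD anti-DBI 5 was highest for Fbp1 (1118 CPM, next 978), highest for Gys2 (308 CPM, next 236) and highest for Cebpa (528 CPM, next 463). RCD IgG 1 was lowest for Ndufa5 (37.1 CPM, next 40.5), highest for Marco (12.6 CPM, next 7.03), lowest for Tfr2 (414 CPM, next 438) and lowest for Cebpd (3.87 CPM, next 5.36). RCD IgG 3 was lowest for Mme (35.2 CPM, next 55.2) and lowest for Aco1 (272 CPM, next 301). RCD IgG 4 was highest for Socs3 (13.4 CPM, next 6.91). RCD IgG 5 was highest for Fmo1 (252 CPM, next 227).

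For 90 of the 153 of these genes that changed on RCD, the antibody effect on RCD differed from that on MCD in the interaction test of edgeR (adjusted p under 0.05), beside 19.2% of all genes. This share is partly fixed by the choice of genes, since some were named for a small interaction p and all for an effect on RCD, which is a term of the interaction. Relatively higher on RCD, by the log2 difference of the effects, were Lcn2 5.98, Saa2 3.58, Saa1 3.20, Mt2 2.92, Orm2 2.85, Syt12 2.62, Mt1 2.50, Cyp2c40 2.45, Saa3 2.15, Rab11fip4 1.98, Itgb2 1.81 and Apcs 1.74. Next in order came Rsad2 1.62, Lyz2 1.51, Fgl1 1.42, Oasl1 1.33, Ctss 1.32, Hp 1.15, Cmpk2 1.14, Col6a3 1.09, Mpeg1 1.07, Hpx 1.05, Serpina7 1.04 and Sdf2l1 1.01. Then followed Sgk1 0.95, Insig2 0.93, Tmem176a 0.91, Cd5l 0.88, Eps8l2 0.88, C1qc 0.85, Cldn1 0.73, Ifi47 0.63, C4bp 0.48, Clock 0.48 and Slc39a1 0.29. Relatively lower on RCD were Ppp1r3g -3.66, Ciart -1.92, Lpin1 -1.85, Hamp2 -1.83, Keg1 -1.83, Elovl6 -1.72, Usp2 -1.69, Acly -1.68, Elovl3 -1.67, Mme -1.48, Uox -1.44 and Col27a1 -1.33. After these came Erbb4 -1.28, Cebpb -1.28, Gys2 -1.18, Serpina6 -1.17, Fmo2 -1.13, Me1 -1.11, Nr1d1 -1.08, Osbpl5 -1.05, Fbp1 -1.05, Ccne1 -1.04, Cps1 -0.98 and Wee1 -0.98. Next were Per3 -0.96, Lpin2 -0.96, Cyp2a5 -0.94, Gls2 -0.94, Asl -0.87, Ccne2 -0.85, Pygl -0.84, Fmo1 -0.83, Tef -0.81, Herpud1 -0.80, Smad7 -0.78 and Abcb1a -0.76. Smaller negative differences were those of Gbe1 -0.76, C8b -0.75, Slc2a2 -0.75, Rora -0.72, Gsta2 -0.71, Nampt -0.70, Ndufa5 -0.66, Slc37a4 -0.66, Cry2 -0.66, Gsta3 -0.65, Prodh -0.58 and Ugp2 -0.56. Still nearer to 0 were those of Gsta4 -0.53, Foxo1 -0.53, Sdhb -0.51, Serping1 -0.47, Cbs -0.45, Aco1 -0.44 and Slc39a8 -0.36.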

How the results depend on the processing

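By edgeR over the 10 livers 772 genes changed. The fit over all 30 livers called 333, of which 304 were among the 772, and without any 1 liver the count lay between 470 and 836, with 470 without RCD anti-DBI 3 and 471 without RCD IgG 5. For genes that changed by a fold of 2 or more the count was 94, against 58 by limma on log2(CPM + 1) and 69 to 118 without any 1 liver. Within the gene lists 177 genes were called, 78 in the fit over all 30 livers and 118 to 198 without any 1 liver. That fit shares 1 estimate of spread with the MCD livers, and the cause of its lower counts was not tested. DESeq2 called 1049 genes, limma 811 and edgeR without a filter 852. The interaction called 2263 to 2781 genes without any 1 RCD liver. Over 18 alternatives, no direction of the 192 called genes followed was reversed, 82 kept their call in each alternative that gave a value and 110 lost it in at least 1. With a replicate block 676 genes changed, 88 of them by a fold of 2 or more and 162 within the lists, and the interaction called 2753. The labels do not say whether replicate numbers pair the livers. Deviations of same-numbered livers correlated at -0.13 to 0.11, and those of differently numbered livers at -0.40 to 0.48. With so wide a range this check cannot decide on pairing, and the block is given only as an alternative. Counting noise limits genes under about 1 CPM, which is 8 to 14 counts per library.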
